A study of Mus musculus with 2 samples.

Results

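The genes described here carry the glucose signal in pancreatic islet cells from sugar entry to electrical activity. They are Slc2a2, G6pc2, Abcc8, Kcnj11, Cacna1c, Cacna1d and Trpm5, 7 of the 31053 genes listed in both count matrices. They were taken by symbol for their known roles, at a time when earlier results of these data were known. Islets came from C57BL/6J mice aged 13 weeks, and the groups are 1 library labelled CD, a name that the labels do not expand, and 1 library labelled HFD, for high-fat diet, from a mouse model that the design text calls prediabetes. No allele, transgene or drug is named for either group, and how many mice gave the islets of a library is not stated in the labels. Islet cells were captured in droplets with the 10x Genomics 3′ chemistry, in which each captured RNA molecule carries a unique molecular identifier (UMI), so that a count is a count of molecules. With 1 library per diet, differences between CD and HFD cannot be checked against replicates and are differences between these 2 libraries.

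In a β cell, glucose enters through a facilitative transporter, is phosphorylated, and is metabolised to ATP. ATP closes the KATP channel, the membrane depolarises, voltage-gated calcium channels open, and insulin is released. The KATP channel is also known in α and δ cells, which secrete glucagon and somatostatin.

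In all, 265836346 UMIs were counted in CD and 271527648 in HFD. Cells were barcodes of 1500 UMIs or more with 500 or more genes and no more than 15% mitochondrial UMIs, which left 9667 CD cells and 12062 HFD cells with median depths of 21895 and 17673 UMIs and median mitochondrial shares of 2.76% and 4.20%. The libraries shared 26 cell barcodes. Cells were classed by hormone share of UMIs, with insulin at 30% or more for β cells (6515 in CD, 7433 in HFD), glucagon at 10% for α cells (1272 and 2005), somatostatin at 3% for δ cells (570 and 662) and pancreatic polypeptide at 20% (328 and 535), each with the other hormones below their limits. Of 6 markers listed for each class, 5 in CD and 4 in HFD were highest in β cells, 4 and 5 in α cells, and 5 and 5 in δ cells. Of 6 markers set for the pancreatic polypeptide class, 1 (Pyy) was highest there in either library, so this class is called Ppy-rich cells after the gene that chose it. Few cells lay at the limits: 34 CD and 39 HFD cells had insulin shares of 30% to 35%, with 276 and 487 CPM (counts scaled to a common total) of G6pc2 among UMIs outside hormone genes, and 18 and 33 cells just outside, at 25% to 30%, had 136 and 442 CPM.

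Slc2a2, G6pc2 and Trpm5 were high in β cells alone among the endocrine classes, and the promoter windows of these 3 genes are given for that shared pattern. Each window runs from 250 bases before to 50 bases after a transcription start, is read 5′ to 3′ on the strand of the gene, and comes from RefSeq on build GRCm38.p6. The table lists 2 windows for G6pc2, and the one within 22 bases of the annotated start of its main transcript is shown, which lies inside the gene's full span. Capitals mark TAAT, a core of homeodomain factor sites, and TGCTGAC, a core of MAF factor sites, on either strand.
Slc2a2, chr3:28697653-28697952, plus strand: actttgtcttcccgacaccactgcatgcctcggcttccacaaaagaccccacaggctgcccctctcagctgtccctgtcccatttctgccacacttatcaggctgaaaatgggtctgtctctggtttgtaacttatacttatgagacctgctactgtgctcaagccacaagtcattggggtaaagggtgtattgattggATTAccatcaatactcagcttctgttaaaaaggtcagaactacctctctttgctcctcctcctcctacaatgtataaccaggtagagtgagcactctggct
G6pc2, chr2:69219699-69219998, plus strand: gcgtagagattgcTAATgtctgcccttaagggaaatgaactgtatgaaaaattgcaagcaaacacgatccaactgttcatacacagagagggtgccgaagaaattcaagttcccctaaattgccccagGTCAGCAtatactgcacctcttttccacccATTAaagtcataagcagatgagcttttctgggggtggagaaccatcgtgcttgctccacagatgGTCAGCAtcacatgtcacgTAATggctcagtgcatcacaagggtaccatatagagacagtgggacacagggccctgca
Trpm5, chr7:143094593-143094892, minus strand: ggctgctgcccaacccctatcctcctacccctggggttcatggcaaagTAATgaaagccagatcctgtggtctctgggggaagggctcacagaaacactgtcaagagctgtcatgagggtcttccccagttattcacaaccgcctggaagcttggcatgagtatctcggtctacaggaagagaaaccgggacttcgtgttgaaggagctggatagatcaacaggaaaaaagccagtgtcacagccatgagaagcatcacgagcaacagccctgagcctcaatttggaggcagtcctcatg

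The G6pc2 window held 3 TAAT and 2 TGCTGAC matches, the Slc2a2 window 1 TAAT match and the Trpm5 window 1. TAAT was found in 58.0% of the 32851 promoter windows of this length in the RefSeq table, and TGCTGAC in 4.67%. CANNTG, the E-box read by basic helix-loop-helix factors, had 4 matches in the G6pc2 window, 1 in the Slc2a2 window and 0 in the Trpm5 window, and was found in 72.3% of all windows. TGTTTAC, a forkhead core, had 0 matches in the 3 windows and was found in 3.65% of all. These are matches of letters only.

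The first comparison asked in which endocrine cells each gene is expressed. UMIs were summed over the cells of a class in a library and expressed as CPM scaled with TMM factors, which align the bulk of genes between sums; the scale matters because insulin and other hormones took 61.6% of β cell UMIs in CD against 18.1% in δ cells. Tests used edgeR's quasi-likelihood fit with library as a block over the 8 sums, on 14993 genes, with Benjamini-Hochberg adjusted p under 0.05 as a call. The p-values rest on how far class differences vary between these 2 libraries, with 3 residual degrees of freedom per gene. The fit also draws each gene's spread toward that of all tested genes. The p-values do not measure the spread between mice. On this scale, 6 of 7 genes were higher in β than in α cells and none lower, whereas 47.9% of all tested genes were called in either direction, 27.1% higher in β cells and 20.7% higher in α cells. The median difference of the 7 was 0.72 on the log2 scale, beside 0.07 for all tested genes.

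**Figure D1:**
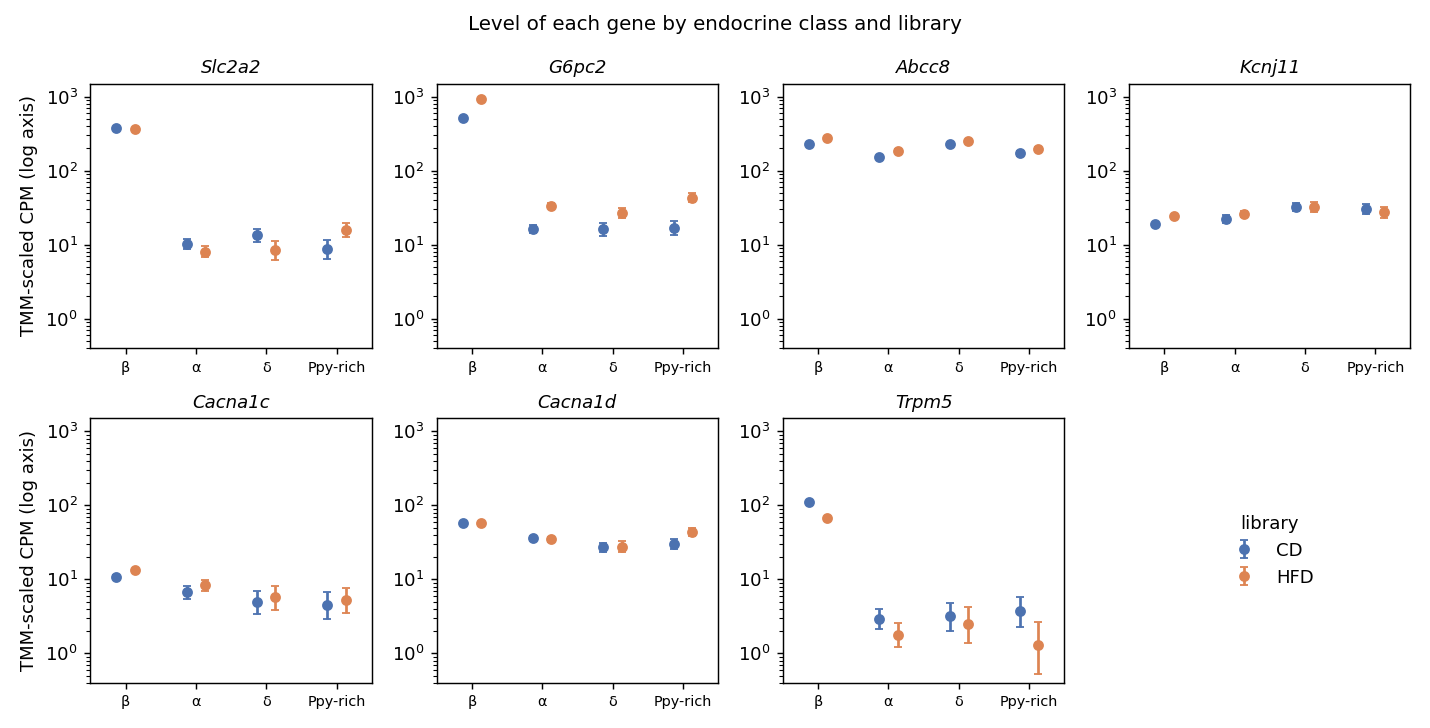
Level of each gene in TMM-scaled CPM (log axis) in β, α, δ and Ppy-rich cells of the CD (blue) and HFD (orange) libraries, with exact Poisson 95% intervals that cover counting error only. Slc2a2, G6pc2 and Trpm5 were over 20-fold higher in β cells than in the other classes, while Abcc8, Kcnj11, Cacna1c and Cacna1d were within 3-fold across the 4 classes.

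Slc2a2 encodes the low-affinity glucose transporter of mouse β cells and lies on chromosome 3 of GRCm38 at 28697903 to 28731359, plus strand, with 11 exons in its longest transcript. Its level was 372 CPM in CD and 367 CPM in HFD β cells. In α cells it was 10.3 and 8.04 CPM, in δ cells 13.5 and 8.39 CPM, and in Ppy-rich cells 8.67 and 15.6 CPM. Both β libraries were far above all 6 sums of the other classes. The log2 difference from α cells was 5.34 (edgeR adjusted p = 2.38e-14), which is 40.5-fold, and it was 5.17 in CD (95% interval 4.94 to 5.41) and 5.51 in HFD (5.27 to 5.76). The differences from δ cells (5.06, edgeR adjusted p = 2.53e-13) and from Ppy-rich cells (4.92, adjusted p = 3.76e-13) were of similar size. The differences among α, δ and Ppy-rich cells did not pass the test.

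G6pc2 encodes the islet form of the glucose-6-phosphatase catalytic subunit, which returns glucose-6-phosphate to glucose. It lies on chromosome 2 at 69211073 to 69227841, plus strand, with 5 exons in its longest transcript. Its β cell level was 515 CPM in CD and 926 CPM in HFD. In α cells it was 16.2 and 33.6 CPM, in δ cells 16.1 and 26.8 CPM, and in Ppy-rich cells 17.0 and 43.2 CPM. The HFD library was the higher of the pair in all 4 classes, yet every β value stood above every value elsewhere. The β level was 29.5-fold that of α cells (log2 4.88, edgeR adjusted p = 2.29e-15), 33.5-fold that of δ cells and 24.8-fold that of Ppy-rich cells.

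Trpm5 encodes a calcium-activated cation channel that passes monovalent ions and is best known from taste cells. It lies on chromosome 7 at 143069153 to 143094642, minus strand. Its level was 112 CPM in CD and 68.0 CPM in HFD β cells, 2.92 and 1.80 CPM in α cells, 3.19 and 2.50 CPM in δ cells, and 3.77 and 1.30 CPM in Ppy-rich cells. The β sums again did not overlap with the others, with a 38.0-fold difference from α cells (log2 5.25, edgeR adjusted p = 2.29e-15), 31.8-fold from δ cells and 35.6-fold from Ppy-rich cells. The values outside β cells rest on 7 to 43 UMIs per sum. Trpm5 overlaps Tssc4 on the opposite strand over 1845 bases, and Slc2a2, Abcc8, Cacna1c and Cacna1d also overlap genes of the opposite strand; the sources used here do not say whether counting used strand.

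Droplets of α, δ and Ppy-rich cells also held insulin UMIs, which free RNA or a β cell in the same droplet can bring. A gene's UMIs were therefore set against the insulin UMIs of the same class, relative to the same ratio in β cells of the library; a value near 1 is what RNA carried over from β cells alone would give, and is read as background. For Slc2a2 the relative ratio was 1.17 in CD (95% interval 0.992 to 1.37) and 0.922 in HFD (0.777 to 1.09) in α cells, and between 0.770 and 1.28 in δ and Ppy-rich cells. The value of 1.28, in CD δ cells, had an interval of 1.03 to 1.57, which lies above 1. Trpm5 stood at 1.10 and 1.11 in α cells and between 0.544 and 1.49 in δ and Ppy-rich cells. G6pc2 stood at 1.33 in CD (1.17 to 1.51) and 1.52 in HFD (1.41 to 1.65) in α cells, somewhat above 1. In δ cells G6pc2 stood at 1.10 in CD and 1.17 in HFD. In Ppy-rich cells it stood at 1.09 in CD and 1.32 (1.16 to 1.51) in HFD, the latter also above 1. Endothelial cells and macrophages of the HFD library, which are not endocrine, gave 1.42 (1.19 to 1.68) and 1.44 (1.09 to 1.87) for the same gene, and endothelial cells of the CD library 1.26 (0.865 to 1.76), so the intervals of the α values overlapped those of endothelial cells in both libraries. CD macrophages, with 8 G6pc2 UMIs, gave 0.673 (0.291 to 1.33). The UMIs of these 3 genes outside β cells are read as background here.

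**Figure D2:**
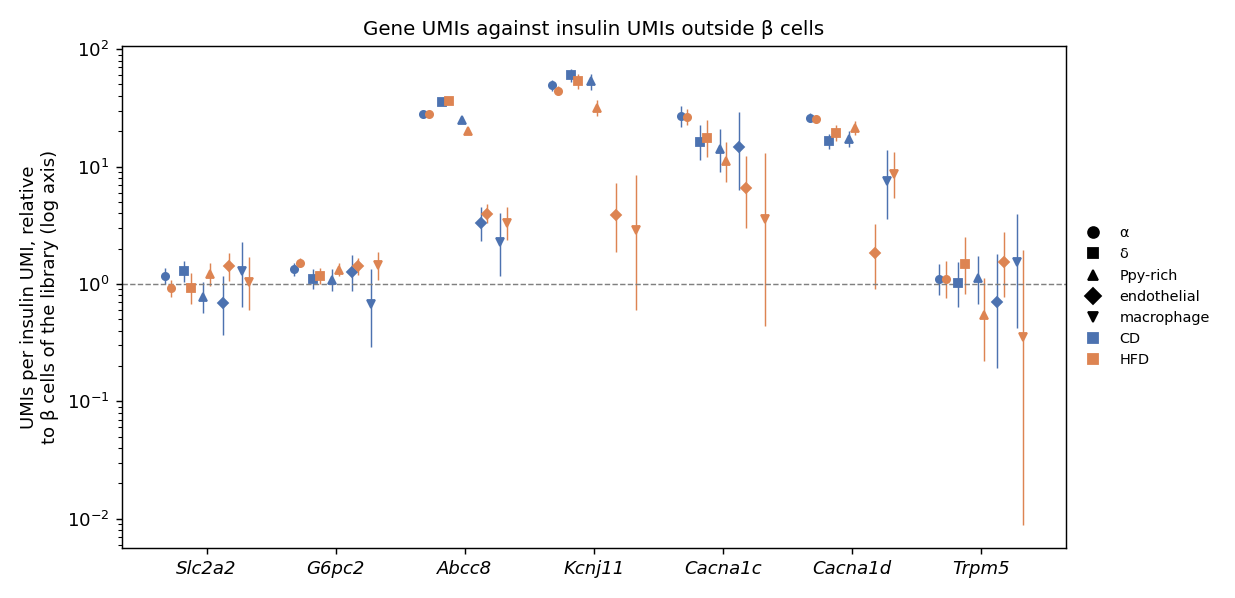
UMIs of each gene per insulin UMI in α, δ, Ppy-rich, endothelial and macrophage cells, relative to β cells of the same library (log axis, dashed line at 1), with 95% intervals for counting error in the class; sums with 0 UMIs are not drawn. Slc2a2, G6pc2 and Trpm5 lie near 1 in every class, while Abcc8, Kcnj11, Cacna1c and Cacna1d lie between 11.2 and 59.7 in the endocrine classes.

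The channel genes gave another picture. Per insulin UMI, Abcc8 was up to 36.1 times (lowest interval bound 18.8), Kcnj11 31.6 to 59.7 times, Cacna1c 11.2 to 26.8 times and Cacna1d 16.5 to 26.1 times as frequent in α, δ and Ppy-rich cells as in β cells, far above the value of 1. The ratio covers only RNA that travels with insulin RNA; the part of other free RNA was not tested by it. In endothelial cells, as background, Abcc8 stood at 3.29 and 3.98, and Kcnj11 was listed with 0 UMIs in CD, which allows up to 1.64 CPM of total UMIs, and 10 UMIs in HFD. Macrophages had 0 and 3 Kcnj11 UMIs. Cacna1c stood at 14.7 (6.35 to 29.0) in CD and 6.54 (2.99 to 12.4) in HFD endothelial cells, on 8 and 9 UMIs. The CD interval covers the Cacna1c values of all 3 endocrine classes in that library, so the ratio does not set them apart. Cacna1d had 0 UMIs in CD endothelial cells and stood at 1.82 in HFD, but macrophages gave 7.48 (3.59 to 13.8) and 8.65 (5.35 to 13.2).

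Abcc8 encodes the sulfonylurea receptor, the regulatory subunit of the KATP channel. It lies on chromosome 7 at 46104523 to 46180033, minus strand, with 39 exons. Its level was 227 and 280 CPM in β cells of CD and HFD, 151 and 187 CPM in α cells, 228 and 250 CPM in δ cells, and 171 and 197 CPM in Ppy-rich cells. β and δ cells were the higher classes and α cells the lowest in either library. Abcc8 was higher in β than in α cells (log2 0.58, edgeR adjusted p = 5.38e-05) and than in Ppy-rich cells (log2 0.46, adjusted p = 0.000989), but with total UMIs in place of TMM the β to α difference turned to -0.26 and the β to Ppy-rich difference was 0.00235 (adjusted p = 0.986). The difference between β and δ cells was 0.08 (adjusted p = 0.553), with an interval of -0.08 to 0.07 in CD and 0.09 to 0.24 in HFD, and it was -1.32 with total UMIs and 0.92 as UMIs per cell. In δ cells Abcc8 was higher than in α cells by 0.50 on the log2 scale (adjusted p = 0.000643), where 26.9% of all tested genes were called, and than in Ppy-rich cells by 0.38 (adjusted p = 0.0112), where 18.5% were called. The α to δ difference kept its direction under the 15 settings and in either library alone.

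Kcnj11 encodes the pore of the KATP channel and is a neighbour of Abcc8 on chromosome 7, at 46093953 to 46100764 on the same strand, with 3758 bases and no other annotated gene between them. Its longest transcript has 1 exon. Kcnj11 was at 19.1 and 24.6 CPM in β cells, 22.2 and 25.9 CPM in α cells, 32.3 and 32.3 CPM in δ cells, and 30.7 and 27.4 CPM in Ppy-rich cells. It was the only one of the 7 genes with a class that passed the test above β cells on this scale. The δ level was 1.49-fold the β level (log2 -0.58 for β over δ, edgeR adjusted p = 0.000912), which was 0.27 for β over δ when expressed as UMIs per cell. β cells were also 1.34-fold below Ppy-rich cells (log2 -0.42, adjusted p = 0.0138), and 0.09 as UMIs per cell. Between β and α cells the difference of -0.15 did not pass (adjusted p = 0.308), with intervals of -0.39 to -0.05 in CD and -0.22 to 0.07 in HFD. δ cells exceeded α cells by 0.43 (adjusted p = 0.0186), and this call was lost as UMIs per cell, with free RNA subtracted and in cells thinned to 1500 UMIs.

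Cacna1c and Cacna1d encode the pore subunits of the L-type calcium channels through which β cells take up calcium for insulin release. Cacna1c lies on chromosome 6 at 118587240 to 119196418, and Cacna1d on chromosome 14 at 30039939 to 30491455, both on the minus strand. Cacna1c was at 10.7 and 13.2 CPM in β cells, 6.78 and 8.32 CPM in α cells, 4.93 and 5.71 CPM in δ cells, and 4.52 and 5.22 CPM in Ppy-rich cells. Cacna1d was at 58.0 and 57.9 CPM in β cells, 35.8 and 34.7 CPM in α cells, 27.1 and 27.8 CPM in δ cells, and 30.2 and 43.6 CPM in Ppy-rich cells. β cells were the highest class for both genes in both libraries. On the log2 scale Cacna1c was higher in β than in α cells by 0.66 and Cacna1d by 0.72 (edgeR adjusted p = 0.000255 and 2.74e-05), and with total UMIs these became -0.18 and -0.12. Over δ cells the differences were 1.16 and 1.08 (adjusted p = 1.63e-05 and 1.30e-06), with -0.24 and -0.33 on total UMIs. Over Ppy-rich cells they were 1.29 and 0.66 (adjusted p = 1.14e-05 and 0.000301), and both stayed above 0 under all settings. Between α and δ cells neither passed (0.50 and 0.36, adjusted p = 0.0548 and 0.0514).

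Over δ cells, 5 of 7 genes were higher in β cells and 1, Kcnj11, lower, beside 41.6% of all tested genes called (25.4% higher in β and 16.2% in δ cells); over Ppy-rich cells 6 were higher and 1 lower, beside 39.3% called (23.7% higher in β and 15.6% in Ppy-rich cells). Between α and δ cells 2 of 7 were called, Abcc8 and Kcnj11, both higher in δ cells, beside 14.4% of tested genes higher in α and 12.5% in δ cells. Between α and Ppy-rich cells 1 was called, Cacna1c, higher in α cells (0.63, edgeR adjusted p = 0.0457), beside 11.7% of tested genes, 6.49% higher in α and 5.23% in Ppy-rich cells. Between δ and Ppy-rich cells 2 were called, Abcc8, higher in δ cells, and Cacna1d, with -0.42 for δ over Ppy-rich cells (adjusted p = 0.0493) and 0.53 on total UMIs, beside 9.34% and 9.14% of tested genes. Scaling by total UMIs moved the median difference of all tested genes from 0.07 to -0.77 for β over α cells and from 0.11 to -1.29 for β over δ cells, and UMIs per cell moved them to 0.91 and 0.95. Relative to these shifts Slc2a2, G6pc2 and Trpm5 kept differences of at least 3.6 from α, δ and Ppy-rich cells under every setting, and the order of the channel genes depended on the scale.

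Shares of cells were also compared. Each cell was thinned to 1500 UMIs, and the share of cells with at least 1 UMI was taken with exact (Clopper-Pearson) 95% intervals. Slc2a2 was seen in 29.4% of CD β cells (28.3 to 30.5) and 27.6% in HFD (26.6 to 28.6), against 21 of 1272 and 30 of 2005 α cells. In endothelial cells, the background for this gene, the shares were 0.880% and 2.77%. Abcc8 was seen in 20.4% and 23.9% of β cells, 22.2% and 26.8% of α cells, and 44.0% (39.9 to 48.2) and 45.3% (41.5 to 49.2) of δ cells, with 2.64% and 4.44% of endothelial cells as background. The δ share of Abcc8 exceeds the β share where CPM do not differ, and hormones take fewer of the thinned UMIs in δ cells; no order is read from it. When cells were thinned to 1000 UMIs outside hormone genes instead, Abcc8 was seen in 31.5% and 38.2% of β cells, 23.5% and 24.9% of α cells, and 36.1% and 42.4% of δ cells, so that the order of β and α cells turned. Without thinning, at median depths of 26671 and 24050 UMIs in β cells, Abcc8 was seen in 92.0% and 94.9% of them and Kcnj11 in 29.9% and 31.0%. Median depth was 4451 and 4401 UMIs in endothelial cells.

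The second comparison asked how the HFD library differed from the CD library within each class. In β cells, 2 of the 7 genes were past 1.5-fold: G6pc2 was higher and Trpm5 lower in HFD. Among all 9027 genes with at least 50 UMIs and 5 CPM in the higher library, 6.59% were past 1.5-fold in β cells, 4.29% higher and 2.30% lower in HFD. The other 5 genes lay between 0.986-fold and 1.29-fold. Ratios carry exact 95% intervals for counting error only, which say nothing of the spread between mice.

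**Figure D3:**
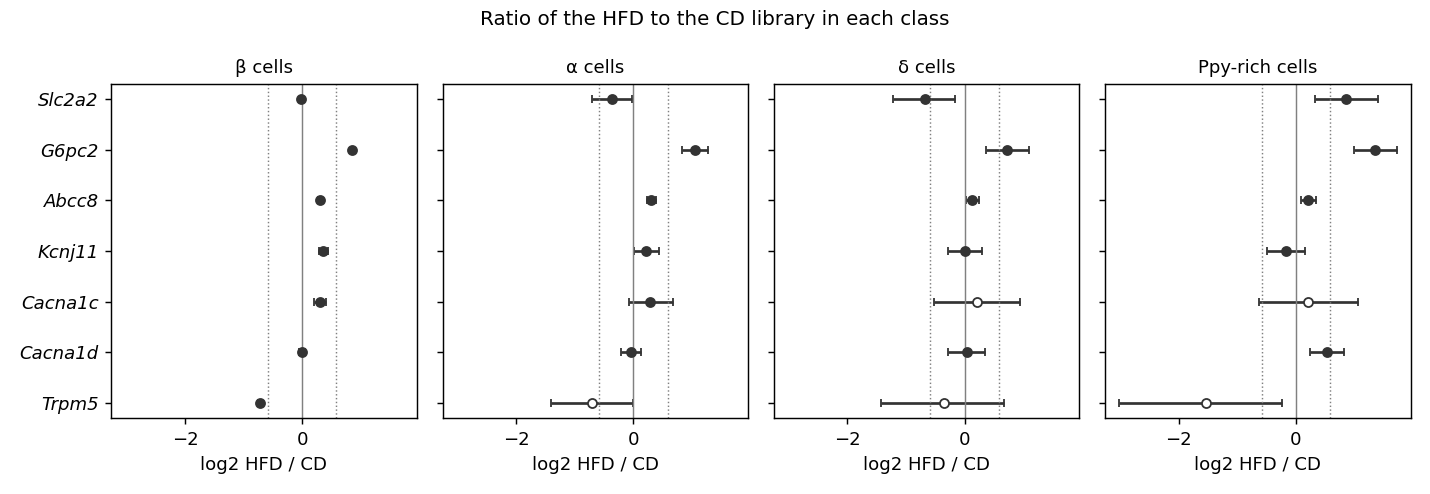
Log2 ratio of the HFD to the CD level of each gene in the 4 classes, with exact 95% intervals for counting error; dotted lines mark 1.5-fold, and open symbols are genes under 50 UMIs or 5 CPM in the higher library. G6pc2 lies to the right of 0 in all 4 panels, with 0.85 in β cells, and Trpm5 to the left, with -0.72 in β cells.

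For G6pc2 the β cell sums were 67135 UMIs in CD and 112696 in HFD, or 10.3 and 15.2 UMIs per cell. The ratio of the scaled levels was 1.80 (log2 0.85, interval 0.83 to 0.86), above that of 98.1% of the β cell genes compared. Over the other settings the log2 ratio lay between 0.56, as UMIs per cell, and 0.98. After thinning to 1500 UMIs, G6pc2 was seen in 36.8% of CD β cells (35.6 to 38.0) and 53.0% of HFD β cells (51.9 to 54.2), and after thinning to 5000 UMIs in 75.7% and 88.4%. Endothelial cells gave 2.93% and 7.02% at 1500 UMIs. The variance of the UMIs per β cell divided by their mean was 1.26 in CD and 1.62 in HFD at 5000 UMIs. A value of 1 is what random sampling of a uniform level gives, and 592 and 213 shallower β cells were left out. The quotient also depends on the mean, which was 1.61 in CD and 2.82 in HFD, so no difference in spread is read from it. Slc2a2 gave 1.35 and 1.32 at this depth.

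Trpm5 went the other way, with 14538 UMIs in CD and 8270 in HFD β cells, or 2.23 and 1.11 UMIs per cell. The ratio of HFD to CD was 0.609 (log2 -0.72, interval -0.75 to -0.68), below all but 1.25% of the β cell genes compared, and its range over the other settings was -1.0, as UMIs per cell, to -0.64. Thinned to 1500 UMIs, 9.69% of CD β cells (8.98 to 10.4) and 5.96% of HFD β cells (5.43 to 6.52) had a Trpm5 UMI, and endothelial cells 0.293% and 1.11%.

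Slc2a2 differed little in β cells, with a ratio of 0.986 and settings from -0.31 to 0.11 on the log2 scale. Cacna1d stood at 0.999. The 2 KATP subunits were higher in HFD on the main scale, Abcc8 1.23-fold (log2 0.30, 0.28 to 0.32) and Kcnj11 1.29-fold (log2 0.36, 0.29 to 0.44), and Cacna1c was 1.24-fold (log2 0.31, 0.20 to 0.41). As UMIs per cell these 3 became 0.01, 0.07 and 0.02, on a scale that moved the median of all β cell genes to -0.28. None of them passed 1.5-fold.

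The HFD β cells were shallower and had more mitochondrial UMIs (median 3.78% against 2.70%), so the ratios were also taken among β cells of like depth, mitochondrial share or insulin share, in CPM of the UMIs outside hormone genes. G6pc2 was higher in HFD in all 12 bins, with log2 ratios from 0.67 to 1.07. In cells of 1500 to 10000 UMIs the CD level was 749 CPM and the HFD level 1569 CPM, and in cells over 30000 UMIs 899 and 1591 CPM. Trpm5 was lower in HFD in all 12 bins, from -0.82 to -0.19. Its difference was smallest in cells with 6% to 15% mitochondrial UMIs, at 117 and 103 CPM (log2 -0.19, -0.39 to 0.00), and in the shallowest cells, at 105 and 81.5 CPM (log2 -0.37, -0.73 to -0.02). Slc2a2 lay between -0.37 and 0.14. Abcc8 was not higher in HFD in every bin: it stood at -0.12 (-0.21 to -0.04) in cells with 6% to 15% mitochondrial UMIs, at -0.06 (-0.19 to 0.07) in the shallowest cells and at -0.03 (-0.29 to 0.21) at the lowest mitochondrial share. Kcnj11 stood at -0.03 (-0.34 to 0.30) with 6% to 15% mitochondrial UMIs and above 0 in the other bins. The bin of lowest mitochondrial share held 56 HFD cells against 873 CD cells.

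**Figure D4:**
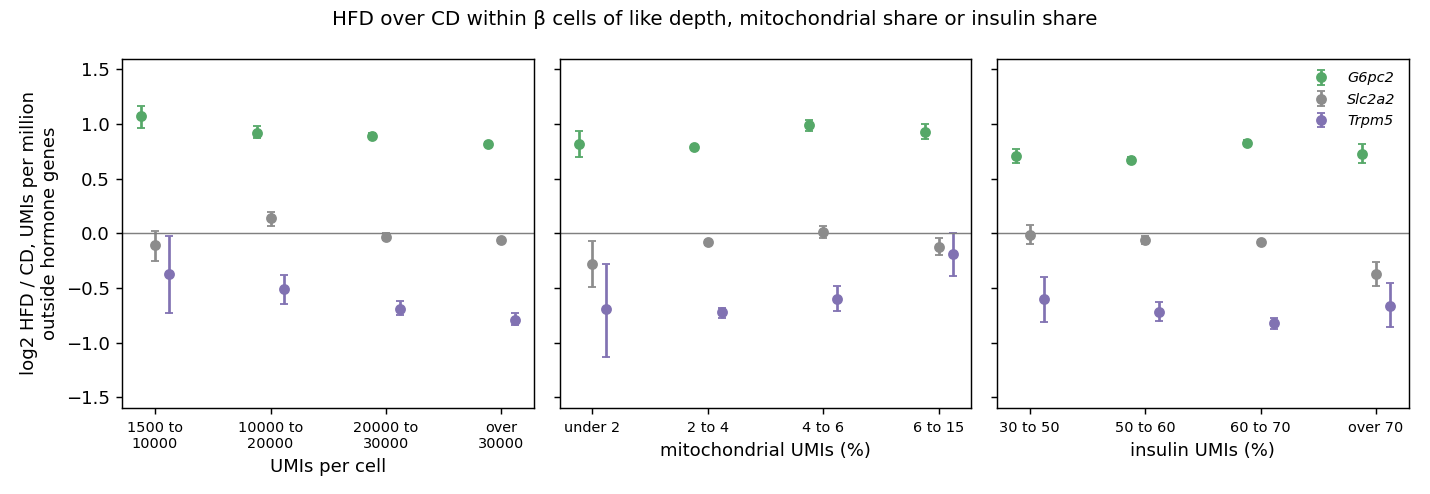
Log2 ratio of HFD to CD in β cells split by UMIs per cell, by mitochondrial share and by insulin share, from CPM of the UMIs outside hormone genes, with 95% intervals for counting error. G6pc2 (green) lies between 0.67 and 1.07 in every bin, Slc2a2 (grey) near 0, and Trpm5 (purple) between -0.82 and -0.19.

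Barcodes with 10 to 100 UMIs, which hold free RNA and few or no cells, showed differences of the same sign as β cells for G6pc2, Trpm5 and Abcc8. G6pc2 made up 225 CPM of total UMIs there in the CD library and 359 CPM in the HFD library (log2 0.67, 0.48 to 0.87), and Trpm5 at 53.5 and 32.9 CPM (log2 -0.70, -1.23 to -0.18). Abcc8 was also higher in HFD (log2 0.59, 0.35 to 0.82) and Slc2a2 lower (log2 -0.46, -0.76 to -0.17). The other 3 genes rested on 9 to 41 UMIs per library, with Kcnj11 at -0.05 (-1.01 to 0.90), Cacna1c at 0.41 (-0.93 to 1.81) and Cacna1d at -0.23 (-0.91 to 0.44).

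In α cells, 1 of the 6 genes with at least 50 UMIs and 5 CPM was past 1.5-fold, G6pc2 (239 and 597 UMIs, log2 1.05, 0.83 to 1.27), beside 7.36% of the α cell genes compared (5.16% higher and 2.20% lower in HFD). In δ cells 2 of 5 were, G6pc2 (log2 0.73, 0.37 to 1.10, and 0.22 as UMIs per cell) and Slc2a2 (93 and 47 UMIs, log2 -0.68, -1.22 to -0.16), beside 9.88% (4.25% higher and 5.63% lower). In Ppy-rich cells 2 of 5 were, G6pc2 (log2 1.35, 0.99 to 1.72) and Slc2a2 (46 and 84 UMIs, log2 0.85, 0.32 to 1.40), beside 7.46% (4.62% higher and 2.84% lower). These are the genes whose UMIs outside β cells stood near the background set by insulin UMIs. With free RNA subtracted neither gave a ratio in α, δ or Ppy-rich cells, because no UMIs of it were left in 1 or both libraries. The share subtracted is uncertain: in CD α cells it was 20.2%, a median over 6 genes with estimates from 5.36% to 136%. The loss follows from the size of the subtraction and is not read as evidence of background. Trpm5 had fewer than 50 UMIs in each of these classes.

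The channel genes differed less between the libraries in these classes. Abcc8 was 1.24-fold higher in HFD α cells (log2 0.31, 0.23 to 0.39), 1.10-fold in δ cells (0.13, 0.03 to 0.24) and 1.15-fold in Ppy-rich cells (0.21, 0.08 to 0.34), but as UMIs per cell these became -0.08, -0.39 and -0.48. Kcnj11 was at ratios of 1.16, 0.999 and 0.891, and Cacna1c at 1.23, 1.16 and 1.15, with 24 to 34 UMIs per sum in δ and Ppy-rich cells. Cacna1d was 1.45-fold higher in HFD Ppy-rich cells (160 and 234 UMIs, log2 0.53, 0.24 to 0.83), against 0.970-fold in α and 1.03-fold in δ cells. The Ppy-rich log2 ratio of Cacna1d was -0.16 as UMIs per cell and 0.72, past 1.5-fold, with free RNA subtracted.

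A list of 32 other genes of glucose entry, membrane potential and calcium entry was compared in the same way, and 29 of them could be tested. Between β and α cells, 9 were higher in β and 7 in α cells, with a median of -0.09 beside 0.07 for all tested genes, of which 27.1% were higher in β and 20.7% in α cells. Between β and δ cells, 7 were higher in β and 15 in δ cells, with a median of -0.55 beside 0.11 for all tested genes, of which 25.4% were higher in β and 16.2% in δ cells. The difference lay mostly in other calcium channel subunits, of which 8 of 11 were higher in δ cells and 1 in β cells. Of these 8, the β subunits Cacnb2 and Cacnb3 turned to 0.16 and 0.28 for β over δ cells as UMIs per cell. Potassium channels, with 5 tested, and other cation channels, with 4 tested, each had 2 genes higher in β and 2 higher in δ cells. Of 3 sodium channels 1 was higher in β and 2 in δ cells. Genes of glucose entry and phosphorylation, with 5 tested, had 1 higher in β and 1 higher in δ cells.

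**Figure D5:**
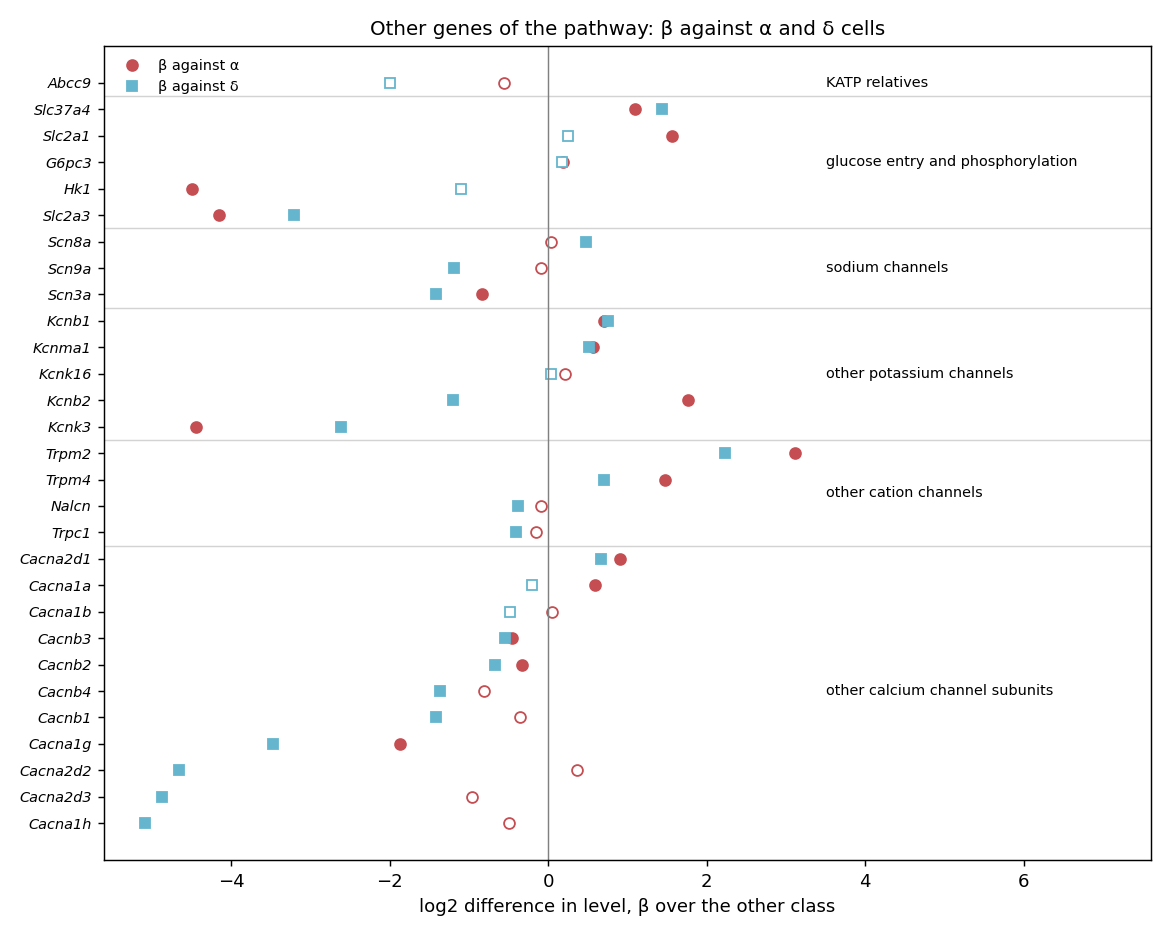
Log2 difference in level between β and α cells (red circles) and between β and δ cells (blue squares) for the 29 tested genes, ordered by group; filled symbols are called at an adjusted p under 0.05. Cacna1h, Cacna2d2 and Cacna2d3 lie below -4 for δ cells and within 1 of 0 for α cells.

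Cacna1h, a T-type calcium channel pore, was at 0.637 and 0.386 CPM in β cells, 1.09 and 0.393 CPM in α cells, and 16.5 and 17.8 CPM in δ cells (β over δ log2 -5.09, edgeR adjusted p = 7.60e-11). Cacna2d2 and Cacna2d3, auxiliary α2δ subunits, were likewise higher in δ than in β and α cells, with δ levels of 19.0 and 25.7 CPM and of 8.84 and 10.2 CPM, all β and α values at or under 1.02 CPM, and β over δ differences of -4.66 and -4.88. The δ level of these 3 genes stayed higher than the β level under every setting, with differences of -3.82 or beyond. Cacna2d1, the α2δ subunit with the most UMIs in β cells, was higher in β than in δ cells by 0.67 (adjusted p = 3.27e-05), a difference that was -0.74 on total UMIs.

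Among the genes of glucose handling, Hk1, a hexokinase of high affinity that β cells are known to repress, was at 0.184 and 0.427 CPM in β cells against 6.85 and 6.80 CPM in α cells (β over α log2 -4.50, edgeR adjusted p = 3.80e-10). It was also low in δ cells, at 0.580 and 0.714 CPM on 4 UMIs each, and β and δ cells did not differ past the test (log2 -1.10, edgeR adjusted p = 0.182). In Ppy-rich cells Hk1 was at 5.84 and 5.78 CPM. Slc37a4, the glucose-6-phosphate translocase that supplies the phosphatase in the endoplasmic reticulum, was higher in β than in α cells by 1.09 and than in δ cells by 1.43 (edgeR adjusted p = 4.19e-07 and 1.52e-07), differences that were 0.25 and 0.03 on total UMIs. Kcnk3, a potassium leak channel, was at 66.8 and 72.4 CPM in α cells against 2.84 and 3.59 CPM in β cells (log2 -4.44, adjusted p = 2.29e-15). Ppy-rich cells had 66.7 and 70.8 CPM of Kcnk3 and did not differ past the test from α cells (log2 0.02, edgeR adjusted p = 0.951). In δ cells Kcnk3 was at 21.2 and 17.5 CPM.

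For the other groups, the genes with the most β cell UMIs or the largest difference between classes were taken. Kcnk16, a potassium channel of the background type, was at 74.6 and 106 CPM in β cells and did not differ past the test from α cells (0.21, edgeR adjusted p = 0.0968) or δ cells (0.04, adjusted p = 0.792). Scn9a, a sodium channel pore, was at 28.9 and 23.6 CPM in β cells against 56.4 and 63.7 CPM in δ cells (β over δ log2 -1.19, edgeR adjusted p = 9.24e-08), and Scn3a, another sodium channel pore, differed in the same direction (log2 -1.42, adjusted p = 3.50e-06). Trpc1, a cation channel, was at 26.6 and 26.5 CPM in β cells and lower than in δ cells (log2 -0.41, edgeR adjusted p = 0.00825), which became 0.43 as UMIs per cell. Trpm2, a cation channel opened by ADP-ribose, was at 3.20 and 2.76 CPM in β cells and higher than in α cells by 3.12 (edgeR adjusted p = 5.05e-07), where it had 5 and 6 UMIs. Abcc9, the other sulfonylurea receptor, was at or under 0.870 CPM in the 8 sums of the 4 classes.

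Between the libraries, 3 of the 16 list genes with at least 50 UMIs and 5 CPM in β cells were past 1.5-fold, 2 higher and 1 lower in HFD, beside 6.59% of all 9027 β cell genes compared (4.29% higher and 2.30% lower). The Slc37a4 level was 56.8 CPM in CD cells and 29.7 CPM in HFD cells (log2 -0.94, -0.99 to -0.88), and was -0.81 or below under every setting. Scn3a was at 13.2 and 26.9 CPM (log2 1.02, 0.94 to 1.11), and Kcnb2, a delayed rectifier potassium channel, at 6.89 and 13.2 CPM (log2 0.94, 0.82 to 1.06). G6pc2 was thus higher in the HFD β cells while Slc37a4, its partner in the endoplasmic reticulum, was lower. The lower Slc37a4 was not particular to β cells. Its log2 ratio was -0.38 (-0.61 to -0.15) in α, -0.71 (-1.16 to -0.28) in δ and -0.51 (-0.93 to -0.09) in Ppy-rich cells. Trpm4, the closest relative of Trpm5, was at 24.7 and 18.3 CPM (log2 -0.44, -0.52 to -0.36).

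Likeness of pattern was measured as Pearson's r of log2(CPM + 1) over 12 sums, the 4 endocrine classes with endothelial cells and macrophages in both libraries, among 7500 genes. The sums share libraries and the hormone shares of their class, so r is a description. The genes most like Slc2a2 were Sytl4, Rims3 and Car10 (r from 0.9823 to 0.9851), those most like G6pc2 were Prlr, Ucn3 and Prss53 (0.9822 to 0.9893), and those most like Trpm5 were Gad1, Atf5 and Slc2a2 (0.945 to 0.9607). Abcc8 was nearest Bex2, Cry2 and Eml5 (0.9914 to 0.9929), Kcnj11 nearest Sgsm1, Kcnh2 and Dzip3 (0.989 to 0.9911), Cacna1c nearest Rif1, Luc7l and Enah (0.9753 to 0.9847), and Cacna1d nearest Smim27, Slc43a2 and Trappc1 (0.9742 to 0.9821). Within the 7 genes, the KATP subunits Abcc8 and Kcnj11 had r = 0.98 and Slc2a2 and Trpm5 0.95, whereas Kcnj11 and Trpm5 had 0.25. Abcc8 had 0.85 with Cacna1c and 0.85 with Cacna1d. The 12 sums include endothelial cells and macrophages, where both KATP subunits were low. Among the endocrine classes Abcc8 was lowest in α cells and Kcnj11 lowest in β cells, in either library.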

How the data were processed

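The deposited matrices hold raw UMI counts per gene and barcode, as the authors deposited them without normalization. The genome build was mm10 and the software Cell Ranger 6.0.1, per the submitters' processing notes. The matrices give software version 3.0.2, per the file headers. The annotation release and strand setting are not given in the sources used here. Every listed barcode was in the files, so cells were chosen here. Positions came from GENCODE M21 for GRCm38, the build of mm10, matched by gene ID for 99.6% of the IDs; overlaps and exons are from it. Promoter windows were listed for 5 of the 7 genes, and not for Abcc8 and Kcnj11.

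The 7 genes and all lists were chosen with earlier results of these data known. All 7 are named throughout; of each group of other pathway genes, the count is given with up to 4 genes, those with the most UMIs in β cells and those with the largest difference between classes or diets, and for each of the 7 genes the 3 genes of highest r with at least 20 CPM in a sum.

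Sums were scaled with TMM (edgeR 4.0.16, R 4.3.3), and a gene was tested with at least 10 UMIs in 2 sums, by glmQLFit and glmQLFTest on library and class. Cells above more than 1 hormone limit (144 in CD, 143 in HFD) were in no class; doublets were otherwise kept, and removing the highest scrublet scores (scanpy 1.11.5; 748 and 1164 cells) was an alternative. Ratios have conditional binomial and shares Clopper-Pearson 95% intervals (scipy 1.17.1), and a count of 0 was given the limit of 3 counts; both cover counting error only. Scripts were tested on simulated data. Alternatives were other scalings, DESeq2 1.42.0, filters, hormone limits, thinning, free RNA subtraction with barcodes of 10 to 100 UMIs, and, added after seeing the data, UMIs per cell and leaving out cells with 0.1% or more acinar UMIs.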

Additional observations from a re-analysis of the deposited data

Results flagged for a closer look

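Slc2a2 differed in direction between classes in its HFD to CD ratio. It was higher in HFD in Ppy-rich cells, with a log2 ratio of 0.85 (46 and 84 UMIs), and lower in α cells, with -0.36 (152 and 143 UMIs), and in δ cells, with -0.68 (93 and 47 UMIs). With 1 library per diet the difference was not tested. In all 3 classes the Slc2a2 UMIs per insulin UMI lay between 0.770 and 1.28 times those of β cells, and thinned to 1500 UMIs the δ ratio was 0.17. The Ppy-rich ratio was 0.16 as UMIs per cell, and the α ratio 0.0 with every cell weighted alike.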

How the results depend on the processing

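No paired analysis was possible because each diet had 1 library and the labels share 1 replicate number. Counts of the 7 genes called between β cells and any other class stayed within 1.5 times under every setting, and those between other classes did not. Between α and δ cells 2 genes were called, 5 with total UMIs, and 1 as UMIs per cell, with free RNA subtracted or thinned to 1500 UMIs. Of all 14993 tested genes 4028 were called in this pair, 7746 with total UMIs and 3114 as UMIs per cell. With free RNA subtracted it was 2397 of 13958, and thinned 1828 of 11261. Between α and Ppy-rich cells 1 was called, 3 with total UMIs or UMIs per cell, and 0 without hormone and mitochondrial genes, with DESeq2 or its size factors, at a mitochondrial limit of 10%, with doublets removed, with stricter hormone limits, with free RNA subtracted or thinned. Of all 14993 tested genes 1757 were called, 6128 with total UMIs and 2576 as UMIs per cell. Under the settings with 0 it was from 449 of 11261, thinned, to 1832 of 14919, with stricter hormone limits. Between δ and Ppy-rich cells 2 were called, 7 with total UMIs, and 1 with DESeq2 or its size factors, doublets removed, stricter hormone limits, free RNA subtracted, thinning or without cells of high acinar share. Of all 14993 tested genes 2771 were called, and 10456 with total UMIs. Under the settings with 1 it was from 781 of 11261, thinned, to 2746 of 14991, without cells of high acinar share. With total UMIs the log2 differences for Abcc8, Cacna1c and Cacna1d were -0.26, -0.18 and -0.12 for β over α cells and -1.32, -0.24 and -0.33 for β over δ cells; G6pc2 had -0.38 for α over δ cells; Abcc8 and Cacna1d had 0.26 and 0.33 for α over Ppy-rich cells; and Slc2a2, G6pc2 and Cacna1d had 0.80, 0.52 and 0.53 for δ over Ppy-rich cells, all reversed. As UMIs per cell Kcnj11 was reversed to 0.70, 0.27 and 0.09 for β over α, δ and Ppy-rich cells. These reversals follow the shift that each scaling gives to all genes. Counting all 7 genes, also those under 50 UMIs, 2 were past 1.5-fold between diets in β cells and 1 as UMIs per cell, where G6pc2 had 0.56. Among all 9027 β cell genes compared, 595 were past 1.5-fold, and 1403 as UMIs per cell. Between diets, counts over all genes are given here for the main scale and UMIs per cell only. In α cells the count of the 7 was 2, and 1 with doublets removed, every cell weighted alike or stricter hormone limits, beside 656 of 8913 compared genes on the main scale. In δ cells the count of the 7 was 2 (G6pc2 and Slc2a2), 2 as UMIs per cell (Slc2a2 with -1.20 and Trpm5 with -0.87, where G6pc2 had 0.22), and 1 with every cell weighted alike or stricter hormone limits, and Slc2a2 was reversed there to 0.17 when thinned. Among 7528 compared δ cell genes, 744 were past 1.5-fold, and 3938 as UMIs per cell. With free RNA subtracted the counts were 0 in α and 0 in δ cells. In Ppy-rich cells the count went from 3 (Slc2a2, G6pc2 and Trpm5) to 1, which was Cacna1d with 0.72. This setting took away more G6pc2 and Slc2a2 than these classes held, so the loss follows from the setting. Among 6926 compared Ppy-rich cell genes, 517 were past 1.5-fold on the main scale. The cause was not tested for changes other than the scalings. Depth limits Trpm5 and Cacna1c outside β cells.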
